A study of Mus musculus with 30 samples.

Results

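Red blood cell transcripts were followed through the day in samples of mouse retinal pigment epithelium (RPE), the pigmented layer behind the photoreceptors. The genes were the 4 adult haemoglobin genes Hba-a1, Hba-a2, Hbb-bs and Hbb-bt, and Alas2, which encodes the red cell form of the first enzyme of haem synthesis. They were taken by symbol from the deposited expression table, and all 5 were found, 5 of 51904 genes. The study compared 6 zeitgeber times (ZT, hours after lights-on by convention): ZT0, ZT2, ZT4, ZT9, ZT14 and ZT19. Each time had 5 male wild type C57BL/6 mice of 10 to 13 weeks, and each mouse gave 1 eye, so the 30 samples are 30 animals and no group carries a treatment or an altered gene. The mice were killed by neck dislocation, retina and front of the eye were taken away, and pigmented clumps were lifted with forceps from an eyecup that still held choroid and sclera. Blood vessels of the choroid therefore lay directly under the sampled layer, and no flushing of the vessels is described.

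Adult haemoglobin is a tetramer of a pair of alpha chains and a pair of beta chains, each holding haem, and it carries oxygen in red cells. Mouse alpha chains come from Hba-a1 and Hba-a2, which lie on the same chromosome, and beta chains in C57BL/6 mice come from the neighbouring genes Hbb-bs (beta-s) and Hbb-bt (beta-t). Alas2 is switched on in developing red cells, while its relative Alas1 serves all other cells. Mammalian red cells lose their nucleus before they enter the blood and their remaining RNA decays over the following days, so young circulating red cells, the reticulocytes, hold globin transcripts but make few new ones. Haemoglobin transcripts in a dissected tissue are usually read as a sign of blood in the sample, although some other cell types are known to express them at low levels.

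On mm10 (gene models of GENCODE M21) Hba-a1 (ENSMUSG00000069919) lies on chromosome 11, start 32283511, end 32284465, on the plus strand, and Hba-a2 (ENSMUSG00000069917) at start 32296489, end 32297298, with 12023 bases between them. Hbb-bt (ENSMUSG00000073940) lies on chromosome 7, start 103812524, end 103813996, and Hbb-bs (ENSMUSG00000052305) at start 103826534, end 103828096, both on the minus strand and 12537 bases apart. Alas2 (ENSMUSG00000025270) lies on chromosome X, start 150547375, end 150570638, on the plus strand. The main transcripts of the haemoglobin genes have 3 exons each, and that of Alas2 has 11.

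The 250 bases before the RefSeq start of each gene (GRCm38.p6) are printed to show which letters the promoters share and where they differ. All 5 genes were in the RefSeq promoter table. The sequences run 5′ to 3′ on the gene's own strand, and capitals mark every match, on either strand, to the TATA box letters TATAA, the CCAAT box, the CACCC box read by factors of the KLF family, or the letters GATAA read by GATA factors, including overlapping matches. In each gene the RefSeq start lies inside the longer GENCODE gene given above, so the window covers some bases of that model.
Hba-a1: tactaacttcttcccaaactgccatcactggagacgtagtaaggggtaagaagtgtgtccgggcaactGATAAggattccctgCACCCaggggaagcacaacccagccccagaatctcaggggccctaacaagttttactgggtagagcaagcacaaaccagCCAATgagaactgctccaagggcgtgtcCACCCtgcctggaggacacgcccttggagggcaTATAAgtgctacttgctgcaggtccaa
Hbb-bs: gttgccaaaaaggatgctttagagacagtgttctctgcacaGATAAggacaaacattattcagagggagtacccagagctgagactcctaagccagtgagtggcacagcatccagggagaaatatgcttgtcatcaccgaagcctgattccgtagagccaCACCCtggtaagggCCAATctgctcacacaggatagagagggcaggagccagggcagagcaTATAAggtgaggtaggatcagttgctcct
Hbb-bt: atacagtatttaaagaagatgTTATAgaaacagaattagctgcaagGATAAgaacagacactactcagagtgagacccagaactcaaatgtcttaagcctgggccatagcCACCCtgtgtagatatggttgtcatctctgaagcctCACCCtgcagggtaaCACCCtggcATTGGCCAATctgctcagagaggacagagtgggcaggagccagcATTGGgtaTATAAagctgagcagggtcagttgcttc
Alas2: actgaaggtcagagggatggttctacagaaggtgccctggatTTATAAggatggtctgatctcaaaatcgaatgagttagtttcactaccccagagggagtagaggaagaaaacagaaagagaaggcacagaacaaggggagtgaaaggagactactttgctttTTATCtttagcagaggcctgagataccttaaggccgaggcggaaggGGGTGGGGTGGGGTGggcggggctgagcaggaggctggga
Hba-a1 is at chr11:32283422-32283671, Hbb-bs at chr7:103827929-103828178, Hbb-bt at chr7:103813924-103814173 and Alas2 at chrX:150547167-150547416. Hba-a2 (chr11:32296242-32296491) is not printed because a run of 297 of its 300 promoter bases is also in Hba-a1, at an offset of 3 bases. The beta pair differed more, with a longest shared run of 14 bases.

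The 4 haemoglobin windows each held all 4 motifs, which 0.968% of 32851 mouse promoter windows of this length do. On the gene's own strand TATAA began 27 to 30 bases before the start and CCAAT 75 to 91 bases before it. Hbb-bt also had reverse matches, to CCAAT at 36 and 80 bases before the start and to TATAA at 229. CACCC matches were in each window, once in Hbb-bs, at 90 bases before the start, and 3 times in Hbb-bt, at 89, 104 and 140. GATAA began 182 bases before the start in Hba-a1, 209 in Hbb-bs and 204 in Hbb-bt. The Alas2 window held 3 adjacent reverse CACCC matches, at 30, 35 and 40 bases before the start, a reverse GATAA match at 86, and TATAA only far upstream, at 207. These letters are common: TATAA was in 22.8% of all promoter windows, CCAAT in 33.8%, CACCC in 52.0% and GATAA in 22.6%. A match describes letters and was not tested as a binding site.

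Levels are given as FPKM, fragments scaled to transcript length and to the mapped fragments of the sample, as deposited, so levels may be compared between genes per length. RPE genes were abundant in these samples, Ttr at a median of 4251 FPKM and Rgr at 2405 FPKM, while Best1, another gene of the RPE list, had a median of 0.607 FPKM and was listed at 0 in 8 samples. The depth, estimated from the steps between low values, was 12.5 to 23.0 M (mega) reads per sample. ZT14 replicate 3 stood apart: it had 12754 genes above 0 against 16723 to 19374 in the others, and 537 genes listed at 0 whose median over samples was at least 10 FPKM, against 1 to 22 in the others. Several results that rest on it are given with and without it, but the SD of the ratio of Hbb-bs to Hbb-bt is given only with it. Replicate numbers only name mice and have no order.

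All 5 genes were above 0 in every sample, and the beta gene Hbb-bs was the most abundant. Over the 30 samples the median was 476 FPKM for Hbb-bs, 187 FPKM for Hba-a1, 139 FPKM for Hba-a2, 68.5 FPKM for Hbb-bt and 6.37 FPKM for Alas2. In rank, Hbb-bs stood between place 45 and place 529 of all genes in a sample, with a median of 158, and Alas2 between 6472 and 13444. The 4 haemoglobin genes together made 279 to 2299 FPKM, with a median of 840, which is 0.0378% to 0.284% of a sample's summed FPKM. From the estimated depth, the lowest sample held about 1116 reads for Hbb-bs, 111 for Hbb-bt and 57.3 for Alas2, so counting error was a small part of the spread for Hbb-bs and a larger one for Alas2. Reads within each pair are hard to assign: of the 75-base windows, the read length, 62.2% of Hba-a1 and 81.0% of Hba-a2 transcripts also occur in the partner, as do 64.3% of Hbb-bs and 56.6% of Hbb-bt, and none is shared between alpha and beta. How shared reads were divided is not given in the sources used here, so the split within a pair is uncertain. If shared reads were left out, the sum of a pair is too low as well, and by an amount that can differ between alpha and beta.

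The alpha gene Hba-a1 had high and low times that alternated. At ZT0 the 5 mice had 171, 194, 98.1, 108 and 152 FPKM, and at ZT2 they had 437, 289, 172, 294 and 357 FPKM. At ZT4 the values were 345, 197, 310, 494 and 125 FPKM, and at ZT9 they were 181, 71.8, 88.2, 273 and 119 FPKM. The ZT4 mice spread widely, and ZT9 had 1 high mouse. At ZT14 the values were 139, 161, 165, 171 and 214 FPKM, the tightest group, and at ZT19 they were 443, 501, 370, 117 and 303 FPKM. Every group overlapped its neighbours in level. The means ± SD (n = 5) were 347 ± 149 FPKM at ZT19, 310 ± 97.5 at ZT2, 294 ± 142 at ZT4, 170.0 ± 27.5 at ZT14, 147 ± 82.3 at ZT9 and 145 ± 40.8 at ZT0. The highest mean was 2.40 times the lowest.

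Hba-a2, the second alpha gene, kept to the same high times. Its mice had 104, 135, 109, 102 and 86.2 FPKM at ZT0, and 275, 247, 152, 156 and 263 FPKM at ZT2. These groups did not overlap for Hba-a2, but they did for each other member. The share of all genes without overlap between ZT0 and ZT2 was not counted. ZT4 held 263, 114, 216, 336 and 77.5 FPKM, and ZT9 held 142, 27.4, 95.9, 279 and 65.5 FPKM, again with wide spreads. ZT14 held 68.7, 74.1, 114, 89.6 and 170.0 FPKM, and ZT19 held 331, 397, 284, 78.5 and 184 FPKM. All 5 mice of ZT2 and none of ZT0 were above the median of the 30 samples. For each other member, 4 mice of ZT2 and 1 of ZT0 were. The means were 255 ± 125 FPKM at ZT19 and 103 ± 41.2 FPKM at ZT14 (SD, n = 5), the highest and lowest.

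Hbb-bs, the major beta gene here, showed the widest range in FPKM. At ZT0 the mice had 352, 492, 286, 280 and 236 FPKM, at ZT2 776, 753, 437, 555 and 916 FPKM, and at ZT4 877, 390, 651, 1276 and 245 FPKM. The highest sample of all was ZT4 replicate 4 and the lowest was ZT9 replicate 2. At ZT9 the values were 460, 165, 238, 604 and 221 FPKM, at ZT14 504, 302, 458, 429 and 541 FPKM, and at ZT19 1154, 1205, 866, 310 and 781 FPKM. In 4 of 5 mice ZT19 lay above every mouse of ZT0, ZT9 and ZT14, and the other mouse lay among them. The means were 863 ± 359 FPKM at ZT19, 688 ± 409 at ZT4, 687 ± 190 at ZT2, 447 ± 91.7 at ZT14, 338 ± 187 at ZT9 and 329 ± 100.2 at ZT0 (SD, n = 5).

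Hbb-bt, the minor beta gene here, had 22.1, 93.1, 22.4, 33.5 and 27.5 FPKM at ZT0, where replicate 2 stood far above the other 4. At ZT2 it had 125, 88.5, 68.0, 86.3 and 104 FPKM, and at ZT4 133, 49.1, 73.6, 157 and 38.5 FPKM. The ZT9 mice had 69.0, 14.0, 24.2, 68.9 and 43.2 FPKM, the ZT14 mice 62.3, 37.6, 20.4, 45.0 and 117 FPKM, and the ZT19 mice 114, 196, 142, 36.4 and 114 FPKM. Its highest mean, at ZT19, was 3.04 times its lowest, at ZT0, the largest such ratio of the 5 genes.

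Alas2 was scarce and its times overlapped broadly. It had 5.81, 5.68, 10.5, 4.06 and 2.18 FPKM at ZT0, 6.46, 10.1, 6.94, 14.8 and 6.10 FPKM at ZT2, and 16.0, 8.42, 5.70, 10.9 and 1.89 FPKM at ZT4, which held both its highest and its lowest sample. It had 5.64, 2.79, 7.72, 9.36 and 2.56 FPKM at ZT9, 2.80, 5.66, 6.28, 7.26 and 7.29 FPKM at ZT14, and 5.88, 14.6, 11.5, 4.12 and 9.07 FPKM at ZT19. Its highest mean, 9.03 ± 4.21 FPKM at ZT19, was 1.61 times its lowest, 5.61 ± 2.99 FPKM at ZT9 (SD, n = 5).

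**Figure D1:**
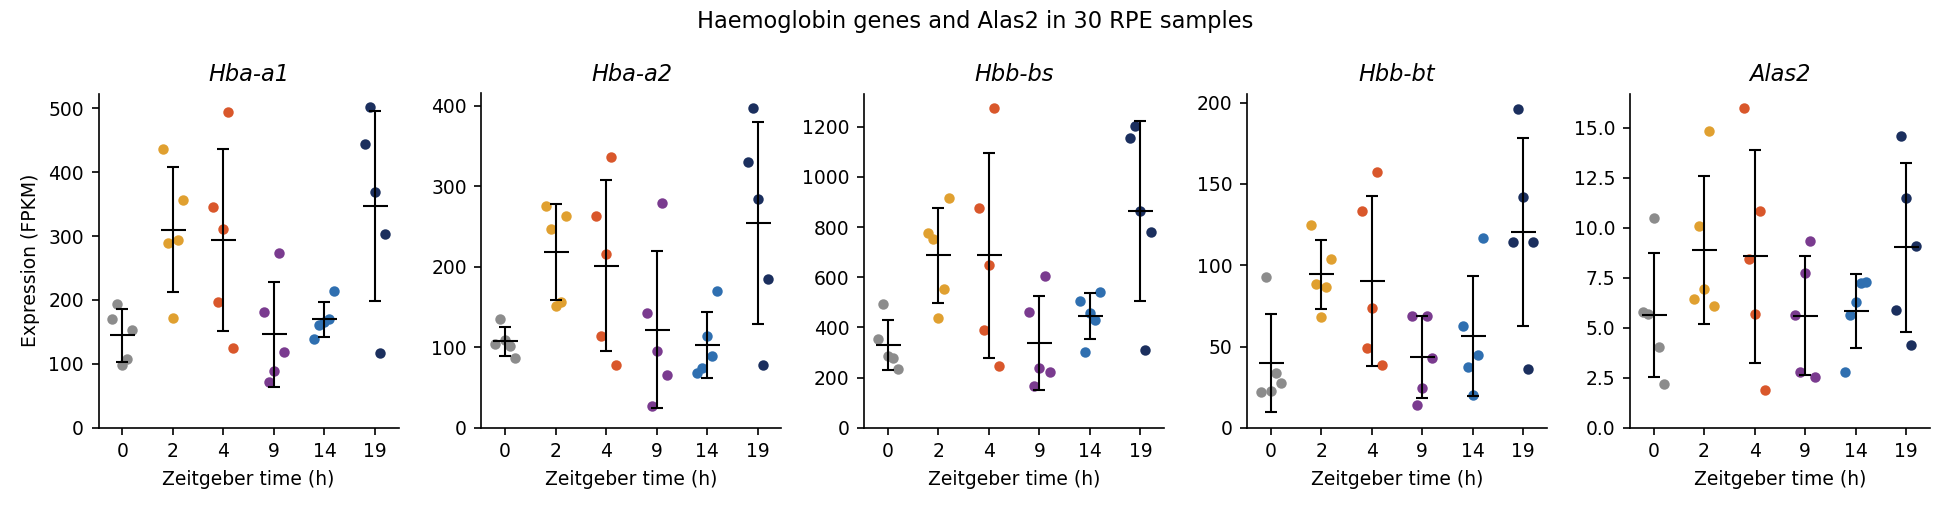
Expression in FPKM (linear axes from 0) of the 5 genes at 6 zeitgeber times; each point is 1 mouse, and the bar and whiskers are mean and SD of 5 mice. ZT2, ZT4 and ZT19 have the higher means for all 5 genes, and all times overlap with at least some of the others.

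The order of the times was nearly the same for the 5 genes, with ZT19, ZT2 and ZT4 above ZT14, ZT9 and ZT0 in each. Of the 25 steps between neighbours in these orders (5 genes, 5 steps each), 1 was larger than the larger of both SDs: ZT2 against ZT14 in Hbb-bs, 687 against 447 FPKM. In none of the 25 did the groups fail to overlap. The other neighbours did not differ beyond their spread. In bulk samples, fewer red cells and less RNA per cell cannot be told apart.

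Several mice were low or high in the haemoglobin genes together, and Alas2 followed in only some of them. ZT19 replicate 4 and ZT4 replicate 5 were the lowest of their times in all 5 genes, and ZT9 replicate 2 was the lowest of its time in the 4 haemoglobin genes. ZT4 replicate 4 was the highest of its time in the 4 haemoglobin genes but not in Alas2. ZT2 replicate 5 was the highest of its time in Hbb-bs and the lowest in Alas2. ZT0 replicate 3 was the lowest of its time in Hba-a1 and the highest in Alas2. That mouse was not low in all haemoglobin genes, with 109 FPKM of Hba-a2 in a ZT0 range of 86.2 to 135 FPKM. High times therefore held low mice: ZT19 replicate 4, with 310 FPKM of Hbb-bs, was below the ZT14 mean.

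**Figure D2:**
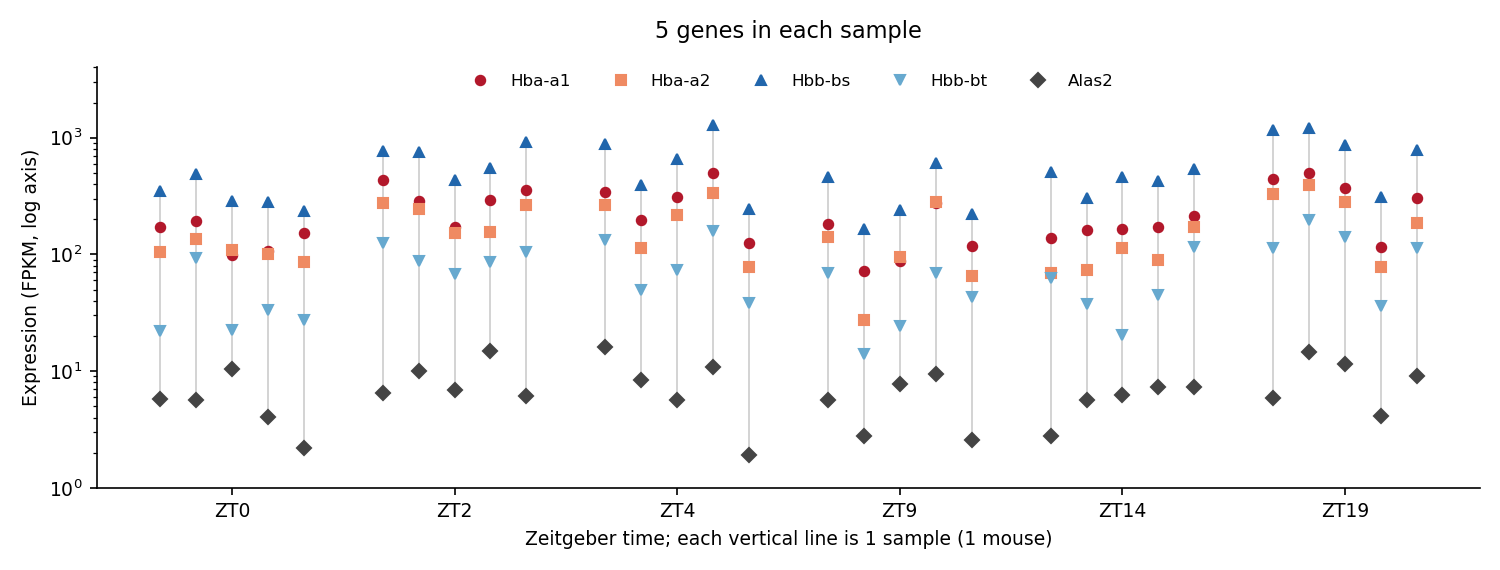
Expression in FPKM on a log axis of the 5 genes in each of 30 samples, grouped by zeitgeber time; each vertical line joins the values of 1 mouse. The 4 haemoglobin genes shift up and down together, from ZT9 replicate 2 (sum 279 FPKM) to ZT19 replicate 2 (sum 2299 FPKM), and Alas2 is the lowest of the 5 in each sample.

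The first comparison asked for a 24 h rhythm, as a cosine fitted to log2(FPKM + 1) with limma over 16741 genes, where the amplitude runs from the fitted mean to the peak. None of the 5 genes passed at an adjusted p (Benjamini-Hochberg over all tested genes) under 0.05, against 0.108% of all genes tested, and none had an unadjusted p under 0.05, against 8.76%. On the log2 scale the amplitude was 0.37 ± 0.20 for Hba-a1, 0.46 ± 0.22 for Hba-a2, 0.39 ± 0.21 for Hbb-bs, 0.39 ± 0.27 for Hbb-bt and 0.20 ± 0.19 for Alas2 (estimate ± SE, n = 30). The median over the 4 haemoglobin genes was 0.39, beside 0.22 over all genes tested. Fitted peaks lay between ZT 20.9 (Hbb-bs) and ZT 22.7 (Hba-a2), a span in which no mouse was sampled. Adjusted p from limma ran from 0.644 (Hba-a2) to 0.893 (Alas2).

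The second comparison asked for any difference among the 6 times, with no assumed shape. Here the 4 haemoglobin genes had unadjusted limma p of 0.00401 for Hba-a1, 0.0238 for Hba-a2, 0.00539 for Hbb-bs and 0.00805 for Hbb-bt, while Alas2 had 0.458. So 4 of the 5 genes were under 0.05 before adjustment, where 8.67% of all genes were. The 4 genes rose and fell together over the samples, so they are not 4 separate results. None passed after adjustment (0.0717% of genes did): adjusted p was 0.342, 0.486, 0.360, 0.397 and 0.861, in the same order, and Hba-a1 held place 196 of 16741. Without ZT14 replicate 3 the unadjusted p was 0.00539, 0.0281, 0.00676, 0.00726 and 0.459, and the lowest adjusted p was 0.307. Differences between times made up 45.6% of the log2 variance of Hba-a1, 36.3% of Hba-a2, 44.1% of Hbb-bs, 42.0% of Hbb-bt and 16.5% of Alas2, against a median of 17.7% over all genes tested.

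Day (ZT2, ZT4 and ZT9) and night (ZT14 and ZT19) each joined high and low times. No member passed the test between them, beside 0.0299% of all genes at an adjusted p under 0.05. No member had an unadjusted p under 0.05 either, beside 10.5% of all genes. Day minus night on the log2 scale was -0.08 ± 0.24 for Hba-a1, 0.04 ± 0.30 for Hba-a2, -0.26 ± 0.25 for Hbb-bs, -0.14 ± 0.32 for Hbb-bt and -0.01 ± 0.28 for Alas2 (estimate ± SE, limma, lowest adjusted p 0.754). A p above the threshold does not show that day and night were alike.

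Left and right eyes were unevenly spread, from 5 left eyes and 0 right at ZT4 to 1 left and 4 right at ZT2 and at ZT19. Hbb-bs ran from 236 to 1276 FPKM in 16 left eyes (median 466) and from 165 to 1154 FPKM in 14 right eyes (median 476). With time as a term, left minus right was 0.23 ± 0.27 for Hba-a1, 0.45 ± 0.33 for Hba-a2, 0.20 ± 0.28 for Hbb-bs, 0.18 ± 0.36 for Hbb-bt and 0.48 ± 0.30 for Alas2 (log2, estimate ± SE, limma). No member passed (lowest adjusted p 0.564), beside 0% of all genes, and none had an unadjusted p under 0.05, beside 11.1%. Without ZT14 replicate 3 the value for Hbb-bt turned to -0.09 (adjusted p = 0.982, limma).

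Ratios between haemoglobin genes varied less than their summed level, the alpha to beta ratio least. The summed FPKM of the 4 genes had an SD of 0.80 on the log2 scale over 30 samples, and the ratio of alpha (Hba-a1 plus Hba-a2) to beta (Hbb-bs plus Hbb-bt) had an SD of 0.24. The alpha to beta ratio had a median of 0.641, and its range was 0.366 (ZT14 replicate 1) to 0.905 (ZT0 replicate 5). Within the alpha pair, Hba-a1 was 1.44 times Hba-a2 at the median, from 0.898 to 2.62, with an SD of 0.36 on the log2 scale. Within the beta pair, Hbb-bs was 8.11 times Hbb-bt, from 4.63 to 22.4, with an SD of 0.48. The highest of these was ZT14 replicate 3, the sample with few detected genes, and without it the median was 8.09. As deposited, summed beta FPKM exceeded summed alpha FPKM in all 30 samples. The part that the handling of shared reads has in these ratios was not tested.

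**Figure D3:**
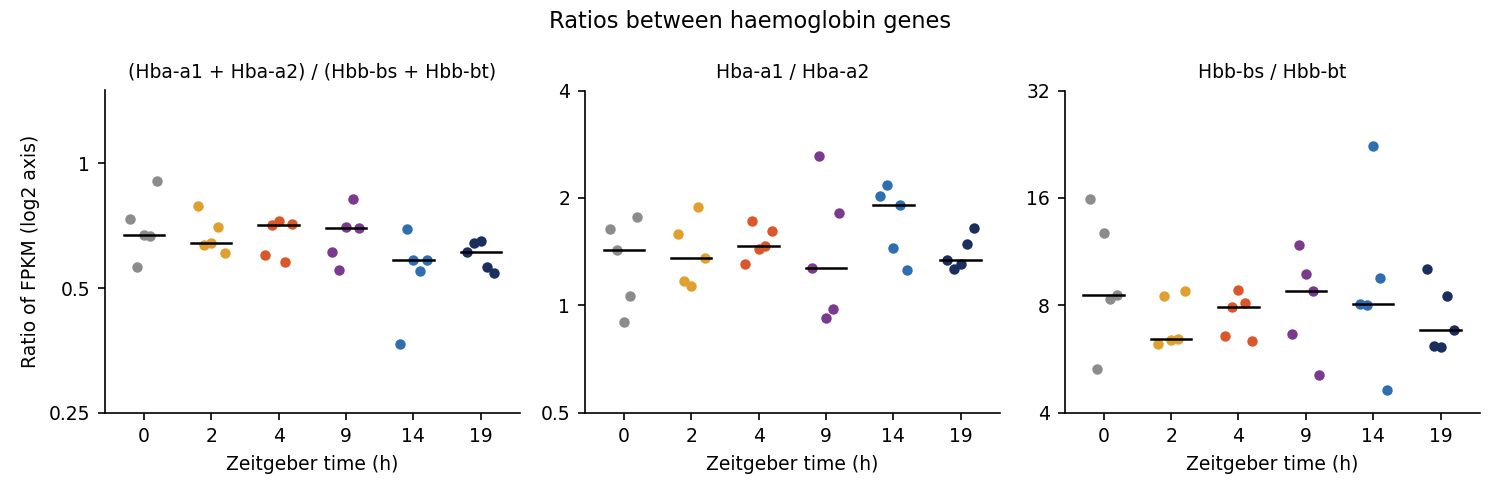
Ratios of FPKM on log2 axes: alpha to beta (left), Hba-a1 to Hba-a2 (middle) and Hbb-bs to Hbb-bt (right), by zeitgeber time; each point is 1 mouse and each line is the median of 5. The alpha to beta ratio stays between 0.366 and 0.905, and the highest ratio of Hbb-bs to Hbb-bt is 22.4, in ZT14 replicate 3.

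The haemoglobin genes followed each other closely and Alas2 less so. Over 30 samples on the log2 scale, Hbb-bs had a Pearson r of 0.949 with Hba-a1, 0.918 with Hba-a2 and 0.888 with Hbb-bt, with Spearman rho of 0.938, 0.904 and 0.887 (permutation p = 1e-05 for each, the smallest that 100000 permutations can give, adjusted p = 5.33e-05 over 16 relations). Without the 2 samples farthest from the Hbb-bs median, r was 0.934, 0.904 and 0.860, and within times it was 0.919, 0.912 and 0.813. Without ZT14 replicate 3 it was 0.950, 0.919 and 0.922. Reads shared within the beta pair enter the last of these, but alpha and beta share none. Alas2 had r = 0.650 and rho = 0.623 with Hbb-bs (permutation p = 0.00011 and 0.0003, adjusted 0.00044 and 0.0012), 0.597 without the 2 farthest samples and 0.568 within times. In the 8 mice numbered 818 to 825, r of Alas2 with Hbb-bs was 0.704, and in the 10 numbered 836 to 845 it was 0.265, so it was lower in the second of these runs of animal numbers, a difference that was not tested. Alas2 ranked 6 among 14289 genes by its r with the mean of the 4 haemoglobin genes, 0.649. The relations were chosen with the values known.

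The genes whose pattern was most like the mean of the 4 haemoglobin genes, among 14293 genes with at least 1 FPKM in at least 15 samples, were Cox14 (r = 0.718), Tuba4a (0.684), Sdhd (0.672), Glipr2 (0.668), 0610012G03Rik (0.652), Fmc1 (0.643), Rpl36 (0.633), Ppp1r2 (0.632), Acot13 (0.628) and Cldn5 (0.620). Cox14 serves assembly of cytochrome oxidase, Sdhd is a subunit of succinate dehydrogenase, Tuba4a an alpha tubulin and Cldn5 the tight junction claudin of endothelium. None passed the test for a difference among times (lowest adjusted p 0.397 for Fmc1, limma). Most like Alas2, outside the 5 genes, were Rflnb (r = 0.654), Ptp4a2 (0.650), Tmem81 (0.649), Ppp1r2 (0.622) and Mob2 (0.612). These r values top a ranking of all genes over 30 samples and are given as a description.

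Most other genes made mainly by red cells or their precursors were listed at or near 0. Of the 7 embryonic and theta globin genes, 6 were listed at 0 in all samples, and Hbb-y, an embryonic beta-like globin, reached 6.83 FPKM and was listed at 0 in 27 samples, and none of the 7 was tested. Values of 0 are also listed for genes of other kinds in these samples, so such entries are read only as listed at 0. In the list of red cell membrane genes, Slc4a1, the band 3 anion exchanger, had a median of 0, as did Epb42, Rhag, Rhd and Kel, and these were named because of that value. Slc4a1 was above 0 in 9 samples and reached 11.0 FPKM. The most abundant members of that list are also made elsewhere: Slc2a1, a glucose transporter abundant in RPE (median 313 FPKM), Aqp1, a water channel (107), and Cd47, a surface signal (74.2). Of the 18 genes of that list, 11 were abundant enough to be tested, and 0 of these passed in any of the 4 comparisons. Slc4a1 and the others with a median of 0 were not tested. The r with the haemoglobin mean was 0.47 for Slc4a1, with 21 of its values at 0, and it was -0.05 for Slc2a1, -0.14 for Aqp1 and -0.04 for Cd47. It was 0.48 for Ermap, 0.46 for Tmod1 and 0.41 for Dmtn, which were named after their values were seen. At the other end it was -0.43 for Epb41, -0.24 for Add2 and -0.18 for Sptb. Over the 17 genes of that list with varying values, r had a median of -0.04 and was positive in 8. The median over all ranked genes was 0.01.

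Of the 10 genes in the list of regulators of red cell development, 4 had a median of 0. These were Gata1, Klf1, Gfi1b and Nfe2, transcription factors of the red cell and platelet lineages, listed at 0 in 28, 27, 28 and 25 samples. Epor, the erythropoietin receptor, had a median of 0.270 FPKM. Tal1 and Bcl11a had medians of 1.26 and 1.30 FPKM, and each was listed at 0 in 2 samples. The more abundant members of that list, Ldb1 (43.4 FPKM), Lmo2 (22.4) and Zfpm1 (9.70), are made in many cells. Of 19 measured genes of late red cell maturation, 5 had a median of 0: Car1, Hemgn, Trim10, Tspo2 and Rhd, while Ahsp was not matched. Prdx2, a peroxide-reducing enzyme (median 252 FPKM), Mkrn1 (72.4) and Car2, a carbonic anhydrase (66.5), were its most abundant members. None of the 7 tested regulators and none of the 14 tested late genes passed in any of the 4 comparisons.

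**Figure D4:**
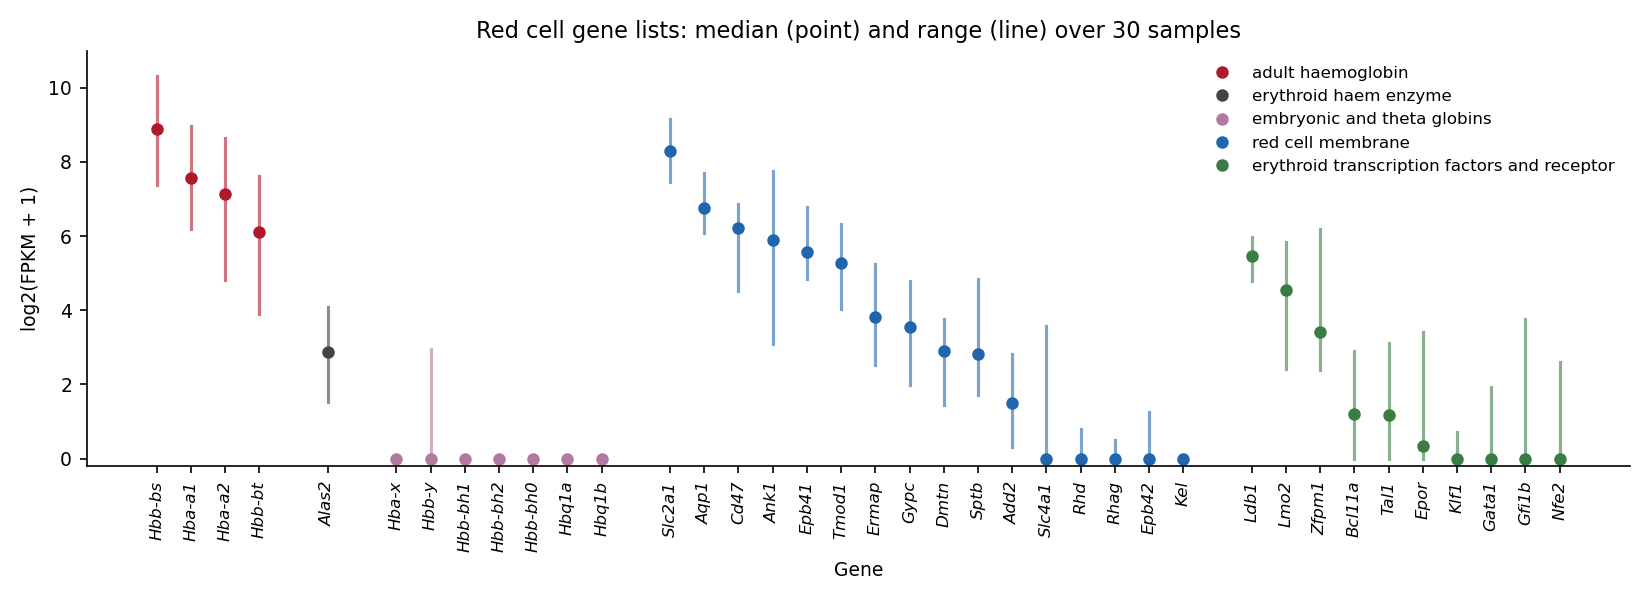
Median (point) and range (line) of log2(FPKM + 1) over 30 samples for genes of 5 lists, sorted by median within a list. The 4 adult haemoglobin genes and Alas2 are above 0 in all samples, whereas the embryonic globins, 5 of the membrane genes drawn and 4 transcription factors have a median of 0.

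Haem synthesis genes outside Alas2 did not track haemoglobin. All 12 genes of the haem and mitochondrial iron list were tested and 0 passed in any comparison. Urod (median 73.5 FPKM), Alas1 (63.0) and Alad (60.9), enzymes of the pathway, were the most abundant, and Alas1 exceeded Alas2 per length in every sample, with a lowest value of 31.3 FPKM against a highest of 16.0 FPKM for Alas2. Their r with the haemoglobin mean had a median of 0.00, positive in 6 of 12, and was -0.34 for Alas1. The other globins were the muscle globin Mb (median 364 FPKM, 144 to 1377), the widely made Cygb (43.0) and the neuronal Ngb (0.753), none of which passed. Of 15 genes that clear haemoglobin and haem or store iron, Trf, which carries iron in plasma (median 4586 FPKM), and the ferritin genes Fth1 (3045) and Ftl1 (1367) were the most abundant. None of the 15 passed. Their r with the haemoglobin mean had a median of 0.07, was positive in 10 of 15 and ran from -0.25 to 0.45, the highest being Fth1.

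Marker lists of other cells differed in how they moved with haemoglobin. All 12 endothelial genes, led by Egfl7 (median 143 FPKM) and Plvap (82.2), and all 8 skeletal muscle genes, led by Mylpf (2018) and Tnni2 (1043), had a positive r with the haemoglobin mean, from 0.12 to 0.62 and from 0.37 to 0.56, and none of either list had a value of 0 in any sample. All 7 genes of the oligodendrocyte myelin list were positive too, from 0.37 to 0.46. Over all ranked genes, r was positive in 7297 of 14289. Against Hbb-bs, the endothelium score (mean log2 of the list) had r = 0.558 and rho = 0.479 (permutation p = 0.00121 and 0.00817, adjusted 0.00323 and 0.0218 over 16 relations), 0.417 without the 2 farthest samples, 0.485 within times, and 0.598 and 0.947 in the animals 818 to 825 and 836 to 845. The muscle score had r = 0.568 and rho = 0.594 (adjusted permutation p = 0.00323 and 0.00205), 0.541 without the 2 farthest samples, 0.472 within times, and 0.594 and 0.562 in these runs. Without ZT14 replicate 3 the muscle score had r = 0.610 and the endothelium score 0.559. The RPE score had r = 0.112 and the rod score -0.13 (adjusted permutation p = 0.630 and 0.599), and the platelet and neutrophil scores 0.102 and 0.133. In the animals 818 to 825 and 836 to 845 the RPE score had r of 0.103 and 0.638. Other scores were also high in the animals 836 to 845, at 0.624 for macrophages, 0.623 for stroma and 0.595 for lymphocytes. In the same animals r was 0.311 for platelets, 0.104 for neutrophils, -0.047 for rods, -0.021 for mural cells and -0.78 for surface epithelium. The mural cell score had r = 0.068 (adjusted permutation p = 0.724) and -0.011 within times. The surface epithelium score had r = -0.38 (adjusted permutation p = 0.0663) and -0.21 within times. Of the 7 genes of that list, 1 had a positive r with the haemoglobin mean. Its summed FPKM ran from 8195 to 15852 at ZT0, 8765.5 to 14048 at ZT2 and 1766 to 2991 at ZT19. The other times were wider, from 1610 to 16631 at ZT4, 1797 to 15962 at ZT9 and 2909 to 10015 at ZT14.

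The endothelial and muscle lists were also highest at ZT19. Summed endothelial FPKM ran from 331 to 481 at ZT0, 399 to 502 at ZT2, 461 to 748 at ZT4, 240 to 711 at ZT9, 396 to 596 at ZT14 and 489 to 950 at ZT19. Summed muscle FPKM ran from 2963 to 5608 at ZT0, 2023 to 12291 at ZT2, 3216 to 10712 at ZT4, 3211 to 8208 at ZT9, 3357 to 15320 at ZT14 and 6198 to 24524 at ZT19. The endothelium score (mean log2 ± SD, n = 5) was 5.40 ± 0.37 at ZT19 and 5.22 ± 0.34 at ZT4, its highest means, and 4.84 ± 0.14 at ZT2, the other time of high haemoglobin. It was 4.97 ± 0.19 at ZT14, 4.92 ± 0.54 at ZT9 and 4.76 ± 0.27 at ZT0. With endothelium and stroma scores as terms, the unadjusted p for a difference among times was 0.0123 for Hba-a1, 0.0593 for Hba-a2, 0.0284 for Hbb-bs and 0.0194 for Hbb-bt. With the muscle score, a term added after the data were seen, it was 0.0182, 0.0565, 0.0333 and 0.0413 in the same order (limma, all adjusted p at least 0.672). Each of these is larger than the p without such terms, 0.00401, 0.0238, 0.00539 and 0.00805, and for Hba-a2 it was above 0.05 in both fits. With runs of animal numbers as terms and no marker score, p was also larger, at 0.00802, 0.0490, 0.0110 and 0.0160 (limma). The part of the marker lists in the difference among times was not tested. The macrophage and myelin scores had r of 0.446 and 0.436 with Hbb-bs (adjusted permutation p = 0.0311 and 0.0316), but adjusted p of 0.135 and 0.138 by Spearman. Without the 2 farthest samples r was 0.296 for macrophages and 0.412 for myelin, and within times 0.245 and 0.542. In the animals 818 to 825 and 836 to 845 the macrophage score had 0.651 and 0.624, and the myelin score 0.718 and 0.457. Their part in the result was not tested either.

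**Figure D5:**
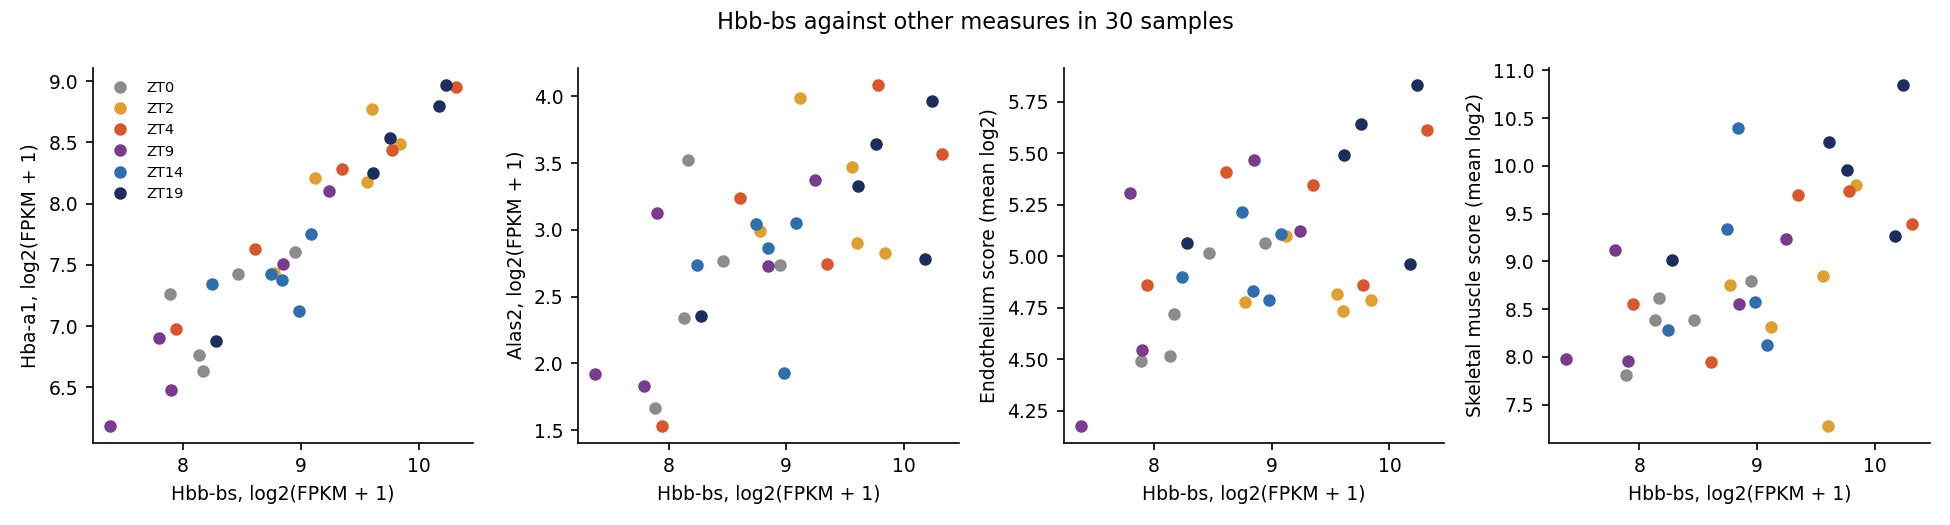
Hbb-bs on the x axis against Hba-a1, Alas2, the endothelium score and the skeletal muscle score in 30 samples, all on log2(FPKM + 1) scales and coloured by zeitgeber time. Hba-a1 follows Hbb-bs most closely (r = 0.949), and Alas2 (0.650), muscle (0.568) and endothelium (0.558) more loosely.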

How the data were processed

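RNA from RPE clumps of 30 mice had been read as single reads of 75 bp on a NextSeq, with a stated mean of 20 M (mega) reads per sample, per the labels' protocols. STAR, Cufflinks, DESeq2 and mm10 are named in the submitters' processing notes, with no versions; the annotation, the role of each tool and the handling of shared reads are not given in the sources used here. The deposited table holds the authors' FPKM for 51904 genes with decimal commas, and each of the 30 columns was matched to a sample by animal number and eye, with 0 columns unused. Counts were not used here. Depth (12.5 to 23.0 M reads) is an estimate from the steps of low values, with counting error only.

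Genes with at least 1 FPKM in at least 5 samples (16741) entered limma (3.58.1, under R 4.3.3) as log2(FPKM + 1), its variance prior following mean level: a 24 h cosine, 1 mean per time, day minus night, and left minus right eye with time as a term. Tests were two-sided, adjusted by Benjamini-Hochberg with a threshold of 0.05, and the code was tested on simulated data. Differences on this scale understate changes of low genes. Relations over samples used 100000 permutations in Python 3.11.15. Alternatives were other pseudocounts, filters and scalings, no variance trend, added terms (eye, runs of animal numbers, marker scores) and each sample left out; the muscle score term was chosen after seeing the data. The members and the 21 gene lists (195 of 196 genes matched, 2 of them by Ensembl ID) were chosen with earlier results of these data known. Named are all members, the 3 most abundant genes and any called gene of each companion list, the 2 most abundant of each marker list that is described, and the 10 and 5 genes most like the haemoglobin mean and Alas2. Some genes of the red cell membrane list are not reported here. Sequences are RefSeq's, GRCm38.p6.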

Additional observations from a re-analysis of the deposited data

Results flagged for a closer look

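In each group of 5 mice the highest and lowest values of the 5 genes, their sum, its share and 3 ratios were compared with the rest of the group, which is 60 groups, and chance marks about 1 in 20 groups. Among them, 3 were marked. Hbb-bt in ZT0 replicate 2 was 93.1 FPKM, above the 22.1 to 33.5 FPKM of the other 4 mice. In the same mouse the haemoglobin genes made 0.112% of summed FPKM, the highest at ZT0. The ratio of Hbb-bs to Hbb-bt in ZT14 replicate 3 was 22.4, with 20.4 FPKM of Hbb-bt in that mouse.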

How the results depend on the processing

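No paired analysis was possible because the labels give no replicate numbers and each sample is another animal. Over 815 fits of the 5 genes under the alternatives, 0 had an adjusted p under 0.05 and the lowest was 0.145. The counts of genes called for the rhythm (13 to 24), for a difference among times (8 to 16) and for day against night (4 to 7) stayed within 1.5 times of 18, 12 and 5 in every alternative run. The count for left against right eye was 0, became 1 with a pseudocount of 0.1 FPKM, and ran from 0 to 5 over the 30 samples left out in turn (5 without ZT0 replicate 5, 2 without ZT19 replicate 2, and 1 each without ZT2 replicate 1 and ZT4 replicate 3). Day minus night, for which none of the 5 genes had an unadjusted limma p under 0.05, turned sign in several fits. With endothelium and stroma scores as terms it was 0.12 for Hba-a1, 0.14 for Hbb-bt and 0.15 for Alas2. With the muscle score it was 0.12 for Hba-a1, 0.013 for Hbb-bs, 0.031 for Hbb-bt and 0.19 for Alas2. With runs of animal numbers as terms it was 0.064 for Hbb-bt and 0.022 for Alas2. For Alas2 it was 0.00638 with a pseudocount of 5 FPKM and 0.017 after scaling to a common 75th percentile. With each sample left out it ran from -0.25 to 0.014 for Hba-a1, -0.15 to 0.18 for Hba-a2, -0.33 to 0.017 for Hbb-bt and -0.12 to 0.11 for Alas2, and stayed negative for Hbb-bs, from -0.43 to -0.15, while left minus right of Hbb-bt ran from -0.085 to 0.44. The cause was not tested. The unadjusted p for a difference among times stayed under 0.05 for the 4 haemoglobin genes with each sample left out. Outside that comparison an unadjusted p went under 0.05 for the rhythm of Hba-a2, at 0.0474 with the muscle score and 0.0358 without ZT9 replicate 4, and for the eye term of Alas2, at 0.0472 without ZT0 replicate 5. Depth limits Hbb-bt and Alas2 most, at about 111 and 57.3 reads in their lowest samples.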

Other observations

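Markers of the other blood cells were present at uneven levels. Among 8 platelet genes, Pf4, a platelet chemokine, had a median of 33.3 FPKM and Itga2b, the platelet integrin, 5.77 FPKM, while Gp9, Gp1ba, Treml1 and Tubb1 had medians of 0. Among 8 neutrophil genes, Ltf, lactoferrin, which glands also make, had a median of 44.6 FPKM and a highest value of 494 FPKM, S100a9 had 3.34 FPKM, and Ngp, Elane and Mpo, of neutrophil granules, were listed at 0 in all samples. Among 9 lymphocyte genes, Ighm (6.43 FPKM) and Igkc (4.76 FPKM), both of antibodies, were the most abundant. Of these lists 6 of 8 platelet, 4 of 8 neutrophil and 6 of 9 lymphocyte genes were abundant enough to be tested, and 0 of those passed in any comparison. The platelet, neutrophil and lymphocyte scores had Pearson r of 0.102, 0.133 and 0.274 with Hbb-bs over 30 samples (adjusted permutation p = 0.630, 0.599 and 0.208).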
